A study of Mus musculus with 5 samples.

Results

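The genes of the cytosolic translation initiation factors (eIFs) and elongation factors (eEFs) were followed in testis of mice that lack Taf7l and of wild-type mice. Members were the gene names of the expression table that begin with Eif1 to Eif6 or with Eef1 or Eef2. This gave 66 genes with 159 table rows, of 22401 gene names with 47044 rows, and each gene was represented by its row with the highest mean signal. The name rule also takes in 4 Argonaute genes, which carried the older names Eif2c1 to Eif2c4, and kinases and binding proteins that regulate the factors. In all 62 members had a mean signal over both libraries of at least 1, as had 12846 of all gene names. Eef1a2, Eif4e1b, Eif2ak4 and Eif2c1 did not.

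RNA was extracted from testes of 3-month-old males, 6 per genotype, and the 6 extracts were pooled into 1 messenger RNA library. The genotypes were Taf7l-/Y, in which the X-linked Taf7l gene is disrupted, and wild type. TAF7L, RNA polymerase II (Pol II) and a non-specific IgG control were each immunoprecipitated in 1 chromatin library labelled wild type, with tissue of 10 mice of that age named for the chromatin. Taf7l encodes a germ-cell relative of TAF7, a subunit of the general transcription factor TFIID. The groups are pools of whole testis with 1 library each, so every difference below compares these libraries, is described by its size and has no replicate check. The deleted part of Taf7l and the strain are not stated in the labels.

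Initiation begins when eIF2, bound to GTP and the initiator tRNA, joins the small ribosomal subunit with eIF1, eIF1A, eIF3 and eIF5, and the cap complex eIF4F recruits the messenger RNA. Elongation then cycles through eEF1A, which delivers aminoacyl-tRNA, its exchange factor eEF1B, and eEF2, which moves the ribosome along the message. In the testis the step is under strong control, because spermatids store many messages and translate them after their chromatin has been compacted and transcription has stopped.

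Signals are the authors' expression values per transcript. The table names no unit, and a check on short genes described under processing gave values that behave as values per length. Taf7l itself had a signal of 2.04 in the knockout library, against 13.2 in the wild-type library. The libraries differed in composition. Late spermatid markers (8 of 8 at least 2-fold lower) summed to 12013 in the knockout library and 67071 in the wild-type library, with none at 0. Sertoli cell markers summed to 1218 in the knockout library and 630 in the wild-type library, with 7 of 8 found in the table, 3 at least 2-fold higher and none at 0. Of 7 spermatogonial markers, which summed to 99.4 in the knockout library and 43.5 in the wild-type library, 4 passed the filter on signal and 2 were at least 2-fold higher. Markers of pachytene spermatocytes and round spermatids (6) summed to 2981 in the knockout library and 3326 in the wild-type library. At the same 2-fold line 1 of them was higher and 2 lower. Leydig cell markers summed to 1523 in the knockout library and 1894 in the wild-type library (5 of 5 measured, 2 at least 2-fold higher), and macrophage markers to 54.7 in the knockout library and 23.8 in the wild-type library (4 of 5 measured, 1 higher). Of 5 epididymal markers, 3 passed the filter and all 3 were at least 2-fold higher, with sums of 115 in the knockout library and 0.496 in the wild-type library, where Lcn5 is listed at 0. These calls are on the unscaled libraries. After the rescaling described below, late spermatid and epididymal calls were as before, while 1 Sertoli marker and no spermatogonial or macrophage marker was higher. Of the Leydig markers 1 was then higher and 2 were lower, and of the pachytene and round spermatid markers none was higher and 2 were lower. The part of these cell types in the values below was not tested. In whole testis, fewer cells of a type and less RNA per cell cannot be told apart.

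At the median the factor genes had about the same difference between the libraries as all gene names. Change is the log2 of the knockout signal plus 1 over the wild-type signal plus 1, a scale that shrinks the change of weakly expressed genes. A gene was called where this change was 2-fold or more. Of the 62 members, 2 (Eif2b3 and Eif2c2) were called higher in the knockout library, as were 7.22% of all gene names, and 1 (Eef1d) was called lower, as were 7.20% of all gene names. Without the added 1, the plain ratio of knockout to wild-type signal was also 2 or more in Eif2s3x (2.32), Eif2a (2.31), Eef1e1 (2.15), Eif2ak3 (2.13) and Eif4a1 (2.001). The median change of the members was 0.37, with quartiles at 0.02 and 0.63, beside 0.40 for all gene names, with quartiles at -0.07 and 0.70. The knockout signal was above the wild-type signal in 47 of 62 members, 75.8%, and in 72.6% of all gene names, and 29 of the 62 lay above the all-gene median. Because the all-gene median lay at 0.40, the knockout library was also rescaled by 0.711 to bring that median to 0. On that scale none of the 62 was 2-fold higher (1.00% of all gene names) and 4 were 2-fold lower (12.6% of all gene names), namely Eef1d, Eif1ax, Eef1g and Eif1. The members' median was then -0.11.

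Translation factors are abundant messages. The 66 genes made up 1.24% of the summed signal of all gene names in the knockout library and 1.03% in the wild-type library. Their median signal, over the 62 members, was 44.8 in the knockout library and 32.2 in the wild-type library, where all gene names had medians of 8.71 and 6.64. Eef1a1 and Eef2 together held 42.8% of the members' summed signal in the knockout library and 37.4% in the wild-type library.

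**Figure D1:**
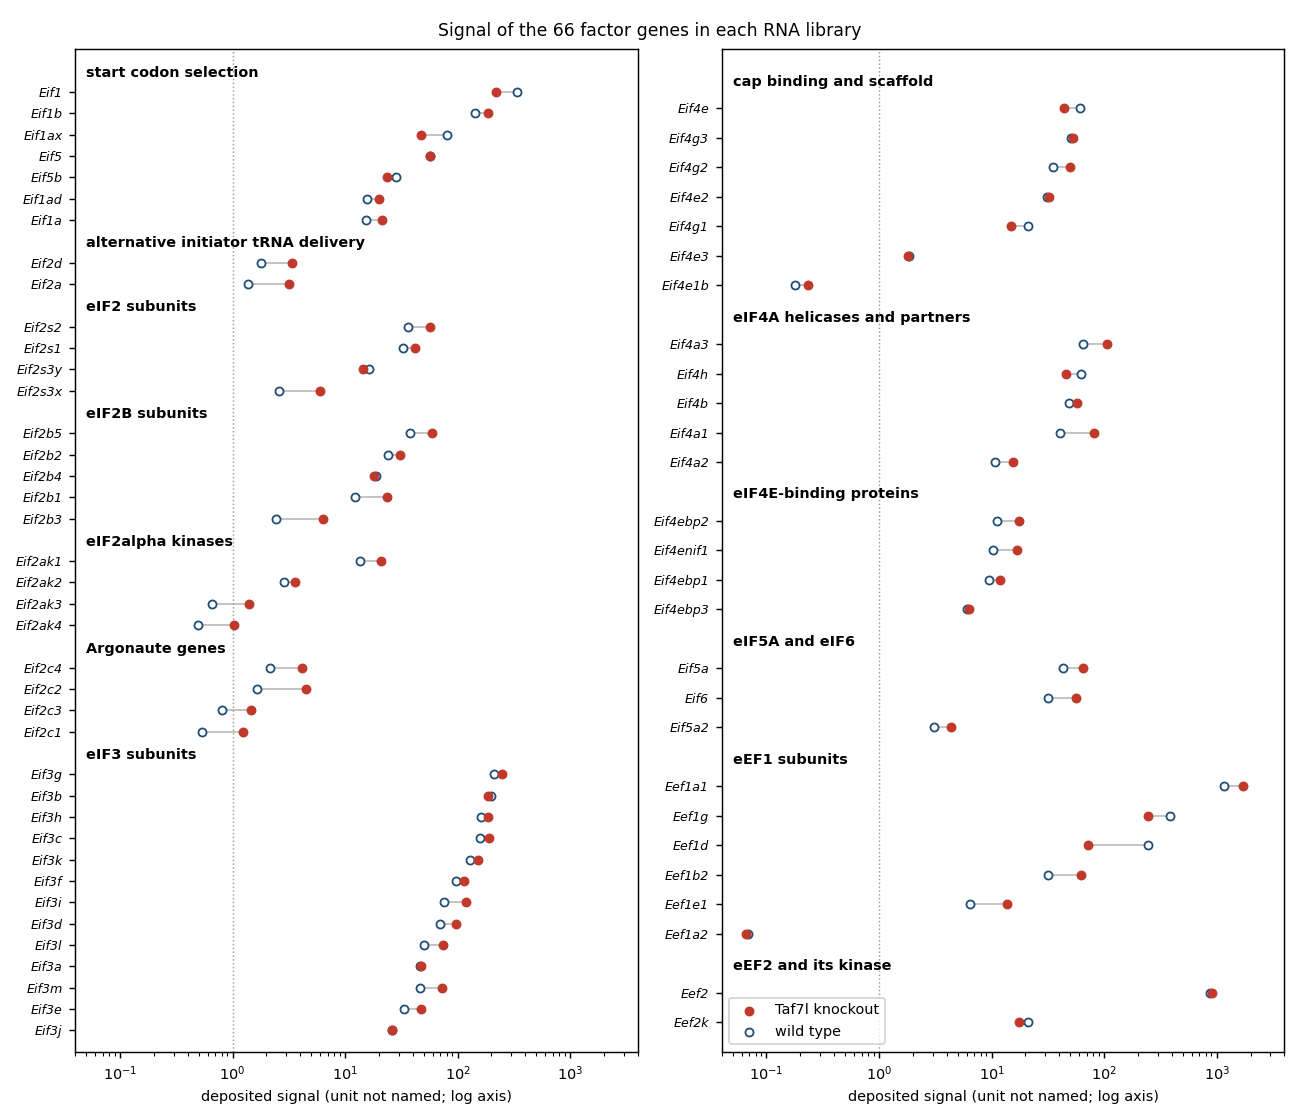
Signal of each of the 66 factor genes (log axis, unit not named in the table), grouped by role and ordered within a role by wild-type signal. Filled red points are the Taf7l knockout library and open blue points the wild-type library, 1 pooled library each, and the dotted line marks a signal of 1. Most red points lie slightly to the right of the blue ones, and Eef1d shows the widest gap with 72.4 in the knockout library and 248 in the wild-type library.

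The elongation factor eEF1 held the gene with the largest difference of all members. Eef1d encodes the delta subunit of eEF1B, the complex that recharges eEF1A with GTP. Its chosen row, described as isoform a, lies on chromosome 15 from 75733108 to 75735791 (mm9), inside the gene. The signal there was 72.4 in the knockout library and 248 in the wild-type library, a log2 change of -1.76, or -2.25 after rescaling. The deposited standard deviations were 7.20 in the knockout library and 13.3 in the wild-type library. Eef1g, the gamma subunit of the same complex, had 246 in the knockout library and 383 in the wild-type library, a log2 change of -0.63. Eef1b2, which encodes the catalytic beta subunit, went the other way with 62.3 in the knockout library and 31.6 in the wild-type library, a change of 0.96. The signal of Eef1d in its chosen row was 1.16 times that of Eef1b2 in the knockout library and 7.83 times in the wild-type library. Rows over the whole Eef1d gene had 25.8 to 45.8 in the knockout library, below Eef1b2. In the wild-type library they had 71.0 to 101, above Eef1b2, so the Eef1d ratio depends on the row. The signal of Eef1g was 3.95 times that of Eef1b2 in the knockout library and 12.1 times in the wild-type library.

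Eef1a1, which encodes the ubiquitous eEF1A, was the most abundant member, with 1719 in the knockout library (rank 17 of all gene names) and 1174 in the wild-type library (rank 40). Its change of 0.55 was 0.06 after rescaling. Eef1a2, the paralogue of muscle and neurons, was far below the filter with 0.066 in the knockout library and 0.068 in the wild-type library. The product of Eef1e1 is a small protein of the multi-tRNA-synthetase complex and not an exchange factor. Eef1e1 had 13.8 in the knockout library and 6.44 in the wild-type library. Its change of 0.997 lay just under the 2-fold line. In the eEF1 group 3 of the 5 genes that passed the filter were above the all-gene median and 2 were below 0.

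Eef2 had almost the same signal in both libraries, 917 in the knockout library and 873 in the wild-type library. Its chosen row is a cDNA clone that covers a short stretch of the gene; the full-length row had 770 in the knockout library and 742 in the wild-type library. Eef2k encodes the kinase that phosphorylates and inactivates eEF2. Its chosen row, also an internal clone, had 17.5 in the knockout library and 20.9 in the wild-type library with deposited standard deviations of 10.3 in the knockout library and 9.14 in the wild-type library. This was the largest standard deviation relative to signal of all 62 members in the knockout library. The row with the longest span had 1.77 in the knockout library and 2.10 in the wild-type library.

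Genes that act at the start codon differed in direction among themselves. eIF1 and eIF1A hold the scanning ribosome open until it meets a start codon. Eif1 had 218 in the knockout library and 339 in the wild-type library, a log2 change of -0.63. Its paralogue Eif1b had 188 in the knockout library and 142 in the wild-type library, a change of 0.39, so that the signal of Eif1 was 1.16 times that of Eif1b in the knockout library and 2.38 times in the wild-type library. Eif1ax, the X-linked eIF1A gene, had 47.3 in the knockout library and 80.2 in the wild-type library, a change of -0.75. The autosomal Eif1a on chromosome 18 had 21.3 in the knockout library and 15.4 in the wild-type library, a change of 0.44. In both paralogue sets the member that was more abundant in wild type was lower in the knockout library and the less abundant member was higher. After rescaling the less abundant ones were near level, at -0.10 for Eif1b and -0.02 for Eif1a, while Eif1 was at -1.12 and Eif1ax at -1.23. Eif5, the GTPase-activating protein of eIF2, had 57.0 in both libraries in its chosen row, which lies inside the gene. Its full-length rows had 21.9 to 22.5 in the knockout library and 19.8 to 20.5 in the wild-type library. Eif5b, which joins the ribosomal subunits, had 23.6 in the knockout library and 28.3 in the wild-type library. Eif1ad, an eIF1A-domain gene, had 20.0 in the knockout library and 15.7 in the wild-type library.

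The subunits of eIF2 were all measured. Eif2s1, the alpha subunit that stress kinases phosphorylate, had 41.9 in the knockout library and 32.6 in the wild-type library. Eif2s2, the beta subunit, had 56.3 in the knockout library and 36.6 in the wild-type library. The gamma subunit, which binds the initiator tRNA and GTP, is encoded by a gene on each sex chromosome. Eif2s3y, the Y-linked copy, had 14.4 in the knockout library and 16.3 in the wild-type library (changes of -0.17, and -0.63 after rescaling). Eif2s3x had 5.96 in the knockout library and 2.57 in the wild-type library, a change of 0.96 that was 0.55 after rescaling. The Y copy therefore had 2.41 times the signal of the X copy in the knockout library and 6.34 times in the wild-type library. Reads of near-identical copies such as these can be assigned to either gene, so this ratio is uncertain.

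eIF2B exchanges GDP for GTP on eIF2. Of its 5 subunit genes 4 had a higher signal in the knockout library, as had 72.6% of all gene names. Above the all-gene median lay 3 of the 4. Eif2b3, the gamma subunit, had the largest positive change on the scale with 1 added, while Eif2c2 had the larger plain ratio (2.69, against 2.61 for Eif2b3). Its signal was 6.33 in the knockout library and 2.42 in the wild-type library, a log2 change of 1.10 that was 0.68 after rescaling. The change was 1.02 and 1.04 in 2 further rows of Eif2b3 that reach its promoter. The remaining row, with a signal under 1, gave 0.40. Eif2b5, the catalytic epsilon subunit, was the most abundant with 59.7 in the knockout library and 37.8 in the wild-type library. Eif2b1 had 23.4 in the knockout library and 12.3 in the wild-type library, while Eif2b4 had 18.1 in the knockout library and 18.9 in the wild-type library. Eif2b2 had 30.9 in the knockout library and 24.0 in the wild-type library.

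The kinases of eIF2 alpha were led by Eif2ak1, the heme-regulated kinase, with 21.0 in the knockout library and 13.5 in the wild-type library. Its row spans Aimp2 and Ankrd61, and strand was not stated, so reads of these genes cannot be set apart where exons overlap. Eif2ak2, the kinase activated by double-stranded RNA, had 3.59 in the knockout library and 2.87 in the wild-type library. Eif2ak3 (PERK, the kinase of the endoplasmic reticulum) had 1.41 in the knockout library and 0.659 in the wild-type library, and Eif2ak4 (GCN2, the amino acid sensor) had 1.02 in the knockout library and 0.496 in the wild-type library. None of the 3 kinases that passed the filter was called, where 14.4% of all gene names were called in either direction. The plain ratio of Eif2ak3 was nevertheless 2.13. Eif2a and Eif2d, which encode proteins that can deliver initiator tRNA without eIF2, were low. Eif2a had 3.17 in the knockout library and 1.37 in the wild-type library, and Eif2d had 3.38 in the knockout library and 1.77 in the wild-type library. The Eif2a row overlaps Serp1.

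The Argonaute genes, which encode small-RNA-guided proteins and no initiation factor, had low signals. Each of the 4, with Eif2c1 below the filter, was above its wild-type signal in the knockout library, as were 72.6% of all gene names. Eif2c2 (now Ago2, the Argonaute that cleaves its targets) had 4.47 in the knockout library and 1.67 in the wild-type library, a change of 1.04, or 0.65 after rescaling. Eif2c4 had 4.13 in the knockout library and 2.16 in the wild-type library, Eif2c3 had 1.47 in the knockout library and 0.806 in the wild-type library, and Eif2c1 had 1.23 in the knockout library and 0.541 in the wild-type library. The rows of Eif2c3 with the longest span had 0.33 and 0.338 in the knockout library, and 0.162 and 0.167 in the wild-type library. Only the chosen row of Eif2c3 passed the filter. A row named Eif2c3 lies within the Eif2c1 gene.

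eIF3, a large scaffold on the small ribosomal subunit, has 13 subunit genes here. All 13 passed the filter and none was past 2-fold, where 14.4% of all gene names were past 2-fold in either direction. Their changes ran from -0.09 (Eif3b) to 0.64 (Eif3i), with a median of 0.22. Summed over the complex the signal was 1557 in the knockout library and 1304 in the wild-type library. On the per-length signal the subunits differed widely in level. The most abundant, Eif3g, had 247 in the knockout library and 212 in the wild-type library. The least abundant, Eif3j, a loosely bound subunit, had 25.9 in the knockout library and 26.4 in the wild-type library. Eif3b, a core subunit, had 186 in the knockout library and 198 in the wild-type library, and Eif3a, the largest subunit, had 47.3 in the knockout library and 46.6 in the wild-type library. Eif3i had the highest change, with 118 in the knockout library and 75.1 in the wild-type library. Eif3m, with 72.4 in the knockout library and 46.3 in the wild-type library, came next. After rescaling the subunits lay between -0.58 and 0.16.

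**Figure D2:**
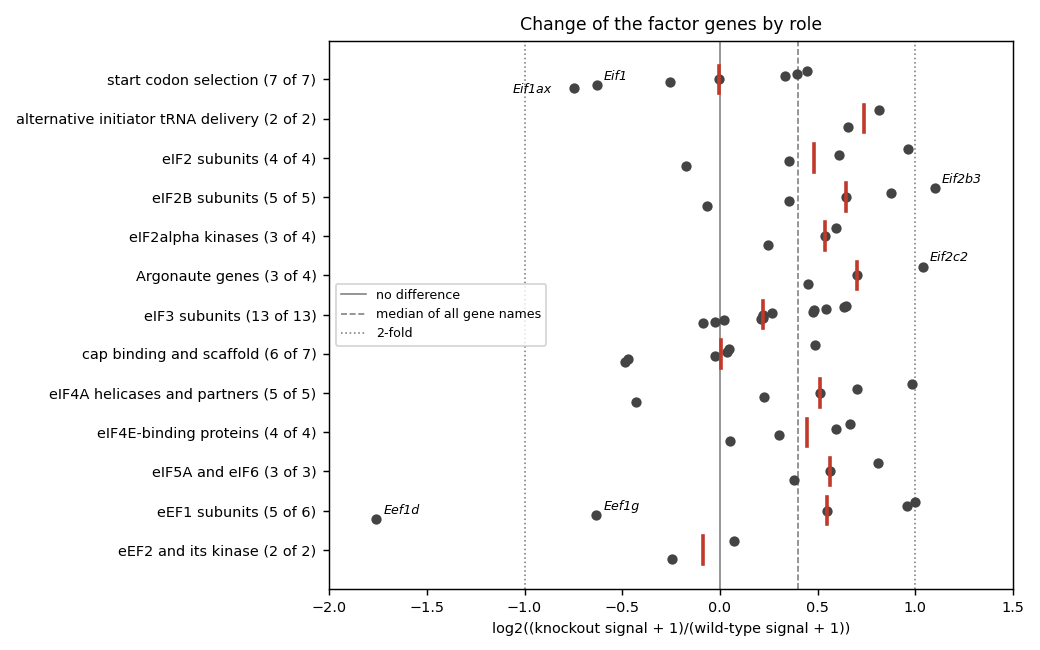
Change of the 62 factor genes that passed the filter on signal, on the scale log2((knockout signal + 1)/(wild-type signal + 1)), by role; the label gives how many of the role's genes passed the filter. Each point is a gene, red bars are role medians, the dashed line is the all-gene median of 0.40 and dotted lines mark 2-fold. The eIF3 subunits lie between -0.09 and 0.64, while eEF1 subunits spread from -1.76 to 0.997.

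Genes of the cap-binding complex lay on both sides of 0, with a median change of 0.00 over the 6 of 7 that passed the filter. eIF4E binds the cap, and Eif4e had 43.7 in the knockout library and 61.7 in the wild-type library, a change of -0.49. Eif4e2, whose product binds the cap without recruiting the ribosome, had 32.4 in the knockout library and 31.3 in the wild-type library. Eif4e3 had 1.80 in the knockout library and 1.85 in the wild-type library. Eif4e1b, the form known from oocytes, was below the filter with 0.236 in the knockout library and 0.179 in the wild-type library, although it has 7 rows. The scaffold genes had unlike values. Eif4g1, the canonical scaffold, had 14.8 in the knockout library and 20.9 in the wild-type library, a change of -0.47. Eif4g2, whose product lacks the eIF4E-binding part, had 50.1 in the knockout library and 35.5 in the wild-type library, a change of 0.48 that was 0.00 after rescaling. Eif4g3, a paralogue that mouse spermatocytes require in meiosis, had 52.4 in the knockout library and 51.2 in the wild-type library in its chosen row. That row covers only the 3′ part of the gene, and the rows spanning the whole gene had 16.2 to 16.8 in the knockout library and 15.4 to 16.0 in the wild-type library.

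The helicase eIF4A unwinds the leader of the message for scanning. Eif4a1 had 80.6 in the knockout library and 40.3 in the wild-type library, a ratio of 2.001 and a change of 0.98 on the scale with 1 added, just under the 2-fold line. Eif4a2, its close paralogue, had 15.6 in the knockout library and 10.6 in the wild-type library. Eif4a3, a helicase of the exon junction complex with no part in scanning, had 106 in the knockout library and 64.7 in the wild-type library. Of the eIF4A stimulators, Eif4b had 57.1 in the knockout library and 48.7 in the wild-type library, and Eif4h had 46.0 in the knockout library and 62.2 in the wild-type library, a change of -0.43. The 4E-binding proteins, which block the eIF4E and eIF4G contact, had lower signals than the median factor gene. Eif4ebp2 had 17.5 in the knockout library and 11.2 in the wild-type library, Eif4ebp1 had 11.9 in the knockout library and 9.47 in the wild-type library, and Eif4ebp3, which lies within Ankhd1, had 6.25 in the knockout library and 5.99 in the wild-type library. Eif4enif1, the transporter that carries eIF4E into the nucleus, had 16.8 in the knockout library and 10.2 in the wild-type library in its chosen internal row. Its row with the longest span had 4.81 in the knockout library and 2.71 in the wild-type library.

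eIF5A, the only known carrier of the amino acid hypusine, helps the ribosome through stalls. Eif5a had 64.9 in the knockout library and 43.6 in the wild-type library, and its tissue-restricted paralogue Eif5a2 had 4.34 in the knockout library and 3.11 in the wild-type library. Eif6, whose product keeps the ribosomal subunits apart, had 56.4 in the knockout library and 31.8 in the wild-type library, a change of 0.81.

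In all 32 members had more than 1 row, up to 10 for Eif4g3, and the rows of a gene mostly had the same sign. All 6 rows of Eef1d had a negative change. Its rows over the whole gene had signals of 25.8 to 45.8 in the knockout library and 71.0 to 101 in the wild-type library, with changes from -1.42 to -1.11, and the row with the lowest signal had 3.31 in the knockout library and 6.96 in the wild-type library, a change of -0.88. The size of the Eef1d difference thus depends on the row, while its direction does not. The chosen row and the whole-gene row at -1.42 are described as isoform a. The other whole-gene rows, at -1.13 to -1.11, are described as isoform b, so size differed by isoform label as well as by span. All 6 rows of Eif4g1 were negative, from -0.47 to -0.26, and all 9 rows of Eif5a positive, from 0.47 to 0.71. Among rows with a mean signal of at least 1, Eif4g3 and Eif5 were the only members whose rows differed in sign, with changes from -0.11 to 0.09 in Eif4g3 and from -0.00 to 0.13 in Eif5. The chosen row overlapped a row under another name in 19 members. Some of these names are cDNA clones, such as AK137428 over Eif3d, or a further name of the same gene, such as meif2C3 over Eif2c3. Where the other name is a different gene, reads could belong to either.

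**Figure D3:**
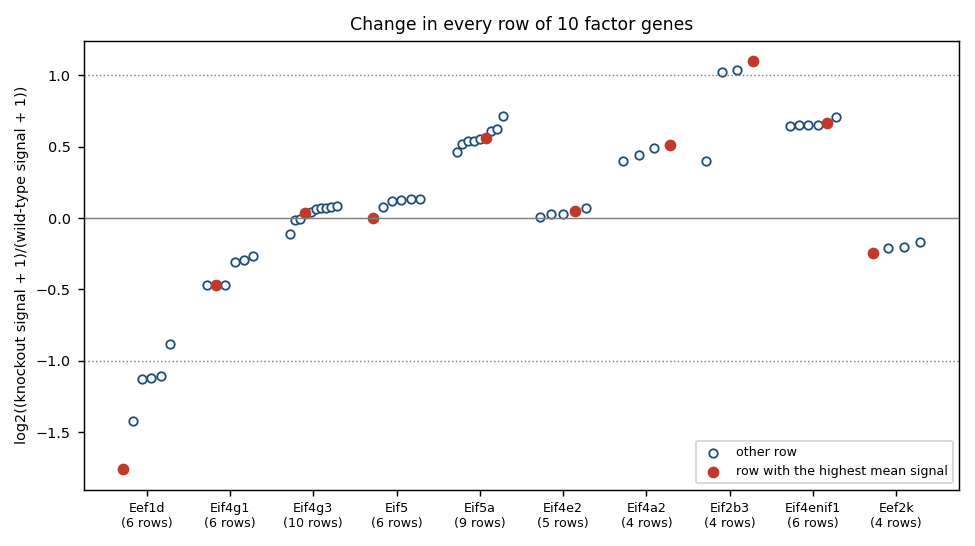
Change in every row of 10 factor genes on the scale log2((knockout signal + 1)/(wild-type signal + 1)). Red points are the rows with the highest mean signal, which represent the gene elsewhere, open points are the other rows, and dotted lines mark 2-fold. The Eef1d rows range from -1.76 to -0.88 and the 10 Eif4g3 rows from -0.11 to 0.09.

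Genes of translation control outside the name rule were read from 6 lists with 56 genes. On the scale with 1 added, none of the 51 that passed the filter was past 2-fold in either direction, where 14.4% of all gene names were. Their median change was 0.47. Without the added 1, the knockout signal was more than 2-fold the wild-type signal in Pabpc4, Paip1, Ddx3x, Rheb and Tsfm. After rescaling 1 was at least 2-fold lower, where 12.6% of all gene names were. This was Paip2, an inhibitor of poly(A)-binding protein, with 40.1 in the knockout library and 63.5 in the wild-type library. The list of poly(A)-binding and cap-complex partners (16 of 19 measured) had a median of 0.26. Pabpc1, the major cytoplasmic poly(A)-binding protein, had 770 in the knockout library and 761 in the wild-type library, and Pabpc2, a testis form, had 234 in the knockout library and 250 in the wild-type library. Release factors (3 of 3) had a median of 0.58, with Etf1, the factor that reads stop codons, at 34.2 in the knockout library and 34.9 in the wild-type library. The list of mTOR and MNK kinases (11 of 11) had a median of 0.47, and Rheb, the activator of mTOR, had 19.5 in the knockout library and 9.46 in the wild-type library. Integrated stress response genes (6 of 7) had a median of 0.46. Ddit3, a target of this pathway, had 109 in the knockout library and 103 in the wild-type library, and Atf4, its transcription factor, had 27.3 in the knockout library and 16.8 in the wild-type library. Enzymes that make hypusine and diphthamide (6 of 7) had a median of 0.52, and mitochondrial translation factors (9 of 9) had one of 0.59, with Gfm1, the mitochondrial elongation factor G, at 18.8 in the knockout library and 10.5 in the wild-type library.

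Most factor genes had a TAF7L score at the promoter in the library labelled wild type. For each transcript the binding table lists the authors' scores of TAF7L and Pol II in promoter, proximal and distal classes. It defines neither the score nor the classes, and a score of 0 was taken to mean that nothing was assigned there. Of the 62 expressed members 48 had a TAF7L promoter score, 77.4% (95% Wilson interval 65.6 to 86.0, counting error over genes only), where 47.6% of all expressed gene names had one. A Pol II promoter score was present in 56 members, 90.3% (80.5 to 95.5), where 76.4% of all expressed gene names had one. Every member with TAF7L also had Pol II, as had 6086 of the 6113 gene names with TAF7L. Of the 56 members with Pol II 85.7% (74.3 to 92.6) had TAF7L, where 62.0% of all gene names with Pol II did. The members are more highly expressed than the average gene, and with a mean signal of at least 5, 84.3% of members and 56.0% of all gene names had a TAF7L promoter score, and 92.2% and 81.8% had one for Pol II. The part of expression level in the difference was not tested further. Proximal TAF7L scores were found in 30.6% of members and 28.0% of all gene names, and distal ones in 58.1% of members and 49.7% of all gene names. For Pol II the proximal shares were 53.2% of members and 56.0% of all gene names, and the distal shares were 77.4% and 73.4%. The IgG library has no column in the table, so no background level is given.

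Promoter sequences are shown for members that differ in TAF7L score. They come from RefSeq (GRCm38.p6), whose start sites are not those of the mm9 binding table, and run from 90 bases before to 30 bases after the RefSeq start. Capitals mark matches, on either strand, to 8 motifs. These were the TATA box as TATAAA or as TATATAA, the CCAAT box (CCAAT itself), the GC box as GGGCGG, the cAMP response element as TGACGTCA, the ETS site as CCGGAAG, the YY1 site as ATGGCGG, and the palindromic NRF1 site. The TATA forms can overlap each other. Eif3f (chr7:108934325-108934444, plus strand), Eif2b1 (chr5:124579102-124579221, minus strand) and Eif4h (chr5:134639380-134639499, minus strand) had the highest TAF7L promoter scores of the chosen rows.
Eif3f: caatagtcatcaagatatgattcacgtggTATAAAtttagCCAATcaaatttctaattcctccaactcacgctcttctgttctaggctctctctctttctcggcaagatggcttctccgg
Eif2b1: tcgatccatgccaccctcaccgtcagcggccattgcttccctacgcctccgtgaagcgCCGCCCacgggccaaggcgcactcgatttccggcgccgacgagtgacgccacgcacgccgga
Eif4h: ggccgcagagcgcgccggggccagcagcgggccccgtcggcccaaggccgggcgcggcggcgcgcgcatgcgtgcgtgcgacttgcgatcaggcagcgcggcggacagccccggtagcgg
Eef1a1 (chr9:78481695-78481814, minus strand) and Eef2 (chr10:81176541-81176660, plus strand), the most abundant members, have TAF7L scores and a TATA-type match, which in Eef1a1 lies after the RefSeq start.
Eef1a1: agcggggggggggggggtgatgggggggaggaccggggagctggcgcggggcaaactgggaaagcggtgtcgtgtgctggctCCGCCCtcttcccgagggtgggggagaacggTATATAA
Eef2: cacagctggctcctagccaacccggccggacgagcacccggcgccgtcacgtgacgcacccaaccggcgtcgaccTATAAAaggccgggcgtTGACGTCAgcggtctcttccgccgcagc
Eif1ax (chrX:159372088-159372207, plus strand), Eif2s3x (chrX:94212622-94212741, minus strand) and Eif2s3y (chrY:1010505-1010624, plus strand) are the sex-linked members with Pol II and no TAF7L score.
Eif1ax: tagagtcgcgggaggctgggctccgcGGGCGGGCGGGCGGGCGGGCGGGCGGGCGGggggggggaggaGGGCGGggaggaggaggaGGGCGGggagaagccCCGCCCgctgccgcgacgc
Eif2s3x: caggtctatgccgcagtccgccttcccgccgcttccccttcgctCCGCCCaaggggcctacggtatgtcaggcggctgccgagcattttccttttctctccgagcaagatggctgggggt
Eif2s3y: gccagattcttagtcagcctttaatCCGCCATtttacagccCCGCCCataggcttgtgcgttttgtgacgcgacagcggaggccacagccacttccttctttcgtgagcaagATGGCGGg

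The stretches with the highest TAF7L promoter scores of the chosen rows had little in common in these letters. Eif3f holds TATAAA and CCAAT within its 120 bases, Eif2b1 holds a GC box on the opposite strand, and Eif4h holds none of the 8 motifs. Eef2 and Eif5 had higher scores in their full-length rows, 271 and 178. The Eef2 stretch holds TATAAA, as that of Eif3f does, and no Eif5 stretch is printed. Eif1ax, which had no TAF7L score, holds 10 GC box matches, many of them overlapping in a repeat, and Eif2s3x and Eif2s3y hold 1 each. Eif2s3y also holds ATGGCGG on both strands. The 300-base RefSeq windows (250 bases before to 50 after the start; the first window where several are listed) matched 52 of the 66 members. TATAAA occurred in 5 of these 52, 9.62%, and in 14.2% of 27025 windows over all symbols. TATATAA occurred in 3, 5.77%, against 3.46%. GGGCGG occurred in 39 members, 75.0%, against 35.9%, and CCGGAAG in 16, 30.8%, against 9.12%. CCAAT occurred in 15, 28.8%, against 37.9%, and ATGGCGG in 4, 7.69%, against 4.19%. TGACGTCA was found in the window of Eef2 alone, 1.92% of members against 1.88%, and the NRF1 site in that of Eif3k alone, 1.92% against 0.977%. The members' windows were rich in G and C, with a median of 62.2% and 24 CpG dinucleotides, against 52.7% and 7 over all symbols. The part of this composition in the GC box and ETS shares was not tested. Neither set of windows was filtered on signal, so the all-symbol shares do not describe expressed genes alone. The part of expression in these shares was not tested.

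The sizes of the scores were near those of all gene names. Members with a TAF7L promoter score had a median of 73.1, from 30.4 to 159, beside 71.6 over all gene names with a score. The Pol II median was 396 for members and 366 for all gene names. Among the 48 members with both scores, the Spearman rho between TAF7L and Pol II was 0.53, and it was 0.59 over the 6086 gene names with both; both scores come from the same tissue and the same promoters. The highest TAF7L promoter score belonged to Eif3f with 159, beside a Pol II score of 311. It was followed by Eif2b1 with 133, Eif4h with 131, Eif3d with 123, Eif2a with 117, Eif3a with 109, Eef1a1 with 107, Eif4a2 with 106, Eif5 with 97.7 and Eif5b with 96.5. The highest Pol II score was at Eif4g2 with 1620, where TAF7L had 88.3. For Eef2 and Eif5 the chosen row starts inside the gene: the full-length rows had TAF7L promoter scores of 271 and 178 and Pol II scores of 1080 and 1360, so that Eef2 would come first by that row.

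**Figure D4:**
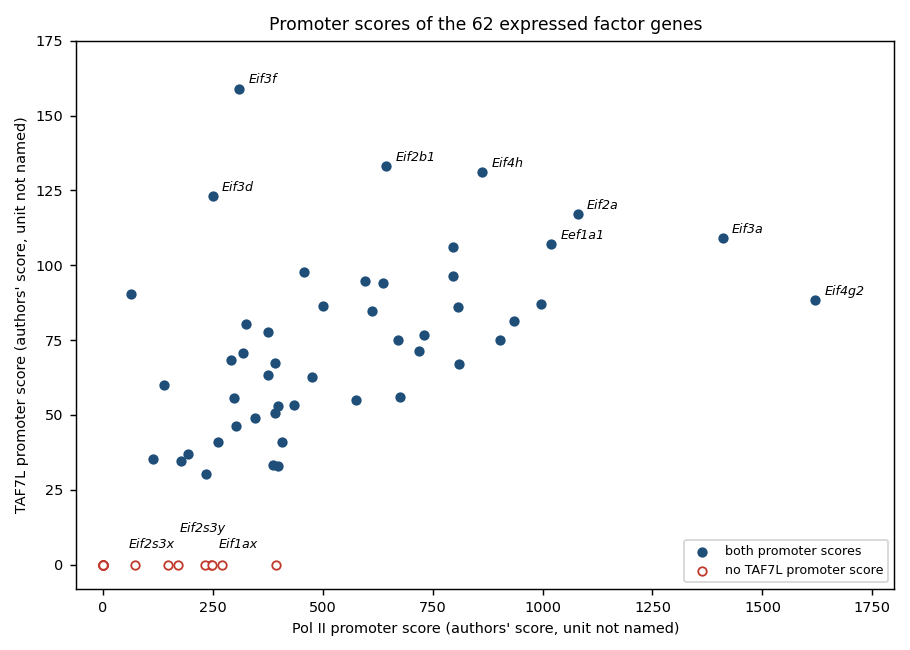
TAF7L promoter score against Pol II promoter score (the authors' scores, unit not named) of the 62 expressed factor genes in the testis libraries labelled wild type, 1 library each. Blue points have both scores and open red points have no TAF7L promoter score. The 3 sex-linked members Eif1ax, Eif2s3x and Eif2s3y lie on the zero line with Pol II scores of 247, 74.7 and 232, and Eif3f has the highest TAF7L score at 159.

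The members without a TAF7L promoter score included every sex-linked factor gene. Eif1ax had a TAF7L promoter score of 0 and a Pol II score of 247, Eif2s3x had 0 and 74.7, and Eif2s3y had 0 and 232; their proximal and distal TAF7L scores were also 0. Over the whole X chromosome 3.58% of expressed gene names had TAF7L at the promoter, against 49.4% on autosomes. For Pol II the share was 50.5% on the X and 77.5% on autosomes. Of the 8 expressed Y-linked gene names 0.00% had TAF7L and 37.5% had Pol II. Eif1a, the autosomal paralogue of Eif1ax, had 81.3 for TAF7L and 936 for Pol II. The other members with a Pol II and no TAF7L promoter score were Eif2d, Eif2ak2, Eif3l, Eif4e3 and Eif4ebp1. Their Pol II promoter scores were 394, 249, 272, 149 and 172. Distal TAF7L scores were 41.5 for Eif2d, 54.3 for Eif2ak2, 99.2 for Eif3l, 97.3 for Eif4ebp1 and 0 for Eif4e3. Eif3l was the only eIF3 subunit gene among them, and 12 of 13 eIF3 genes had a TAF7L promoter score. In the remaining 6 members, Eef2k, Eif2ak3, Eif2b3, Eif4ebp3, Eif4enif1 and Eif4g3, the chosen row had neither promoter score. For 5 of these another row of the same gene had a Pol II promoter score. For Eif2b3, Eif4enif1 and Eif4g3 another row had a TAF7L promoter score, with 79.5, up to 62.7 and 91.2. Counted over any row, 51 members (82.3%) had TAF7L at the promoter and 61 (98.4%) had Pol II there, where 54.7% and 85.8% of all expressed gene names did.

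Members with and without TAF7L at the promoter had overlapping ranges of change. The 48 members with a score had a median log2 change of 0.39, and the 14 without had 0.27. Over all expressed gene names these medians were 0.43 and 0.37. Across the 48 members the Spearman rho between TAF7L score and change was 0.02. The member that was at least 2-fold lower, Eef1d, had a TAF7L score of 40.8 and a Pol II score of 263 in its chosen row. That row lies inside the gene, and the rows over the whole gene had 37.9 for TAF7L and 474 for Pol II. Of the 2 higher members, Eif2c2 had a TAF7L score of 70.6 and a Pol II score of 319, and Eif2b3 had them only in its promoter-spanning rows.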

How the data were processed

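Messenger RNA of 2 pooled libraries (Taf7l knockout and wild type) and the TAF7L and Pol II chromatin libraries, labelled wild type, were used; the labels' shared chromatin protocol names both genotypes. The submitters' processing notes name Bowtie for all libraries, TopHat and Cufflinks for RNA, and mm9. Neither versions nor a peak caller nor a role of IgG were given in the sources used here. Per the file headers, the deposited expression table holds a mean signal per transcript with its standard deviation. It also has the authors' log2 ratio, which puts wild type over knockout, and the authors' ratio of standard deviation over mean, both left unused here. What the standard deviation was taken over is not stated; with 1 library per genotype it is technical. The deposited binding table holds a score per transcript and class, read as a signal with no stated unit.

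Gene names were table names found as a symbol or synonym in RefSeq (GRCm38.p6, names only) or a list of gene symbols. Each name was represented by its row with the highest mean (the chosen row). A mean of 1 was the minimum, 1 the pseudocount and 2-fold the call; alternatives are given in the closing section. Over rows of 300 to 3000 bp with a signal of at least 5, log2 variance over mean fell with log2 span, with slopes of -0.80 (1453 rows, knockout) and -0.76 (1350 rows, wild type), where -1 is what a value per length and 0 what a value not per length would give under counting error. The labels give 100 to 200 M reads per RNA library; chromatin depth is unknown. Near-identical copies and pseudogenes, common for Eef1a1, Eif4a1 and others, could not be set apart. No test was possible. The change, call and rescaling were checked on simulated data without noise, where equal numbers of genes were raised and lowered. That checks the code, and not the rescaling of libraries that differ in composition as these do. Members, lists and rules were chosen with earlier results of these data known. Named genes were every called member, the most abundant and most changed of each role, paralogue sets, the 10 highest TAF7L scores and Taf7l; other members were added for completeness. Python 3.11.15 was used.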

Additional observations from a re-analysis of the deposited data

How the results depend on the processing

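With 1 library per group, no replicate could be left out. No paired analysis was possible because each group has 1 sample. Of 62 members compared under 4 settings (243 values), 234 kept their call, 3 lost it, 6 gained it and none reversed. The count of members at least 2-fold higher, 2, became 5 with pseudocount 0.1 (Eef1e1, Eif2a and Eif2s3x added), 0 with a mean signal of at least 5, 0 after rescaling and 1 with the mean over a gene's rows, where Eif2b3 was at 0.99. The count over all gene names, 928 of 12846, became 2089 of 12846, 711 of 7997, 129 of 12846 and 805 of 12391 under these settings in turn. The count of lower members, 1, became 4 after rescaling (925 and 1616 of all gene names), with Eif1ax at -1.23, Eef1g at -1.12 and Eif1 at -1.12 added, and the median of 0.37 became -0.11. Eef1d was called lower in every setting tried. The median stayed between 0.30 and 0.38 in the other settings, where the all-gene median was 0.10 without a filter and 0.34 to 0.48 otherwise. The share of members with a TAF7L promoter score, 77.4%, was 61.3% at a score of at least 50 (36.8% of all gene names) and 74.2% to 84.7% otherwise. In those other settings all gene names had 28.7% without a filter and 54.7% with any row of a gene. They had 53.5% with the row of longest span and 56.0% with a mean signal of at least 5. The Pol II share of 90.3% was 98.4% with any row of a gene (85.8% of all gene names) and 98.3% with the row of longest span (83.9%), where all gene names had 76.4% as reported. The setting with the longest span, and the filter at 5 for the scores, were chosen after seeing the data. Unknown chromatin depth limits what a score of 0 says.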
